A study of Mus musculus with 6 samples.

Results

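The genes described here are the switch that lets a cell leave G1 phase, 10 in all: the D-type cyclins Ccnd1, Ccnd2 and Ccnd3, their kinases Cdk4 and Cdk6, and the CDK inhibitors Cdkn1a, Cdkn1b, Cdkn2a, Cdkn2b and Cdkn2c. They were selected by gene symbol from a deposited expression table of 57180 gene rows, and all 10 had a row. Counts were high enough to test 8 of them. The other 2, Cdkn2a and Cdkn2b, had a count of 0 in every library.

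D-type cyclins rise when growth signals arrive, and bind CDK4 or CDK6. The resulting kinases phosphorylate the retinoblastoma protein and its relatives, which frees E2F transcription factors to switch on the genes of DNA replication. INK4 inhibitors, encoded by Cdkn2a, Cdkn2b, Cdkn2c and Cdkn2d, bind CDK4 and CDK6 directly and keep D-type cyclins off. The Cip/Kip proteins p21 (Cdkn1a) and p27 (Cdkn1b) block CDK2 complexes and also help D-type cyclins and their kinases to assemble. In the testis, cyclin D2 is known for its appearance when undifferentiated spermatogonia begin to differentiate, and male mice that lack both Cdkn2c and Cdkn2d are infertile.

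Stranded sequencing of poly(A) RNA covered 6 libraries made from GC-1 spg, a line of mouse spermatogonial origin that was immortalised with the large T antigen of a simian virus. That antigen is known to bind p53 and the retinoblastoma protein family, and its activity was not measured here. In 3 libraries the labels give the genotype SNHG1 Overexpression, and in the other 3 Vector Control. All 6 carry the tissue label testis, the cell type label Germ Cell and the treatment label Non-obstructive azoospermia, a form of male infertility, and the series places collection 24 hours after transfection. SNHG1 is a host gene of small nucleolar RNAs whose spliced product is a long non-coding RNA. The labels name no separate cultures, so p-values reflect the spread between these libraries, part of which may be technical. Because the cells are one line in culture, a lower level in a library can mean fewer expressing cells or less RNA per cell, which cannot be told apart here.

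Library totals lay between 15521900 and 21095427 counts. Levels are given as CPM, the share of a library's counts scaled to a common total and corrected by TMM factors, and intervals cover counting error and the spread between libraries as far as 3 libraries per group show it. The groups separated on the first principal component (32% of the variance), whereas on the second the score of SNHG1 overexpression replicate 1 was 28.7 against -14.6 to 6.87 for the rest. Snhg1 itself was at 24.0, 26.4 and 25.3 CPM in the libraries labelled overexpression against 22.1, 25.9 and 20.9 CPM, so the groups overlapped and the counted mouse gene did not check the labels. Of 9 germ cell markers, 5 (Ddx4, Mael, Tdrd1, Nanos2 and Dppa3) had a count of 0 in all libraries and the summed CPM of all 9 was at most 1.10. The label Germ Cell was therefore not borne out by those markers. The 8 peritubular or mesenchymal genes summed to 18340 to 19200 CPM in the labelled overexpression libraries and 21820 to 23220 CPM in the vector libraries. Most of that was Col1a2, at means of 13175 and 16173 CPM, and Col1a1, at 4511 and 5165 CPM. The collagen chains Col1a2 and Col3a1 were lower and the receptor Pdgfra higher. Acta2 averaged 7.05 and 8.40 CPM and Des 2.63 and 2.26 CPM, and neither passed. Myh11 had 17 counts in all, with 0 in SNHG1 overexpression replicates 1 and 3, and was not tested. The 10 markers of undifferentiated spermatogonia summed to 109 to 112 CPM against 145 to 149 CPM, nearly all of it the integrin Itga6, which was lower, while Zbtb16, Id4, Sall4, Ret and Thy1 were at 0. The 8 Sertoli cell markers summed to 929.8 to 1009 CPM against 646.6 to 682.6 CPM. Most of that was the protease Ctsl, which was higher, at 861 to 932 CPM against 571 to 602 CPM. Sox9, Amh, Gata4 and Inha did not pass, and Wt1, Cldn11 and Fshr were at 0. Summed macrophage markers stood at 42.1 to 48.2 CPM in the labelled overexpression libraries and 33.9 to 34.5 CPM in the vector libraries, with Cd14 the 1 marker of 9 that passed, at 24.4 ± 2.10 CPM against 14.4 ± 0.632 CPM (SD, n = 3). Cd68 was at 3.70 to 4.05 CPM against 2.17 to 2.71 CPM and did not pass (edgeR, adjusted p = 0.0904). Csf1r lay the other way, at 0.950 to 1.14 CPM against 1.36 to 1.52 CPM, as did Adgre1 at 0.104 to 0.257 CPM against 0.271 to 0.452 CPM. Lyz2 averaged 15.3 CPM against 15.4 CPM. No macrophage marker was at 0 throughout, while C1qa, C1qb and Itgam each had fewer than 10 counts over all libraries. The part of these marker lists in the results below was not tested.

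Cdk6 was the 1 member that passed. It was higher in the libraries labelled SNHG1 overexpression, by 1.31-fold (95% interval 1.19 to 1.45). The other 7 tested members did not pass, 3 with a positive and 4 with a negative estimate, and their log2 fold changes lay between -0.21 and 0.10. The test was edgeR's quasi-likelihood test over 14605 genes with Benjamini-Hochberg adjustment at 0.05, which called 2.4% of all tested genes, 1.54% higher and 0.856% lower. DESeq2 also called Cdk6 alone of the members, and 5.4% of the genes it tested. The groups did not overlap in CPM for 3 of the 8 members, against 23.7% of all tested genes. Cdk6 was the 1 that was higher in the labelled libraries (11.4% of all tested genes), and Ccnd2 and Cdkn1b were the 2 that were lower (12.3%). The median log2 fold change of the 8 was 0.03, beside 0.007 for all tested genes, and it turned to -0.04 with GC and length trends removed.

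**Figure D1:**
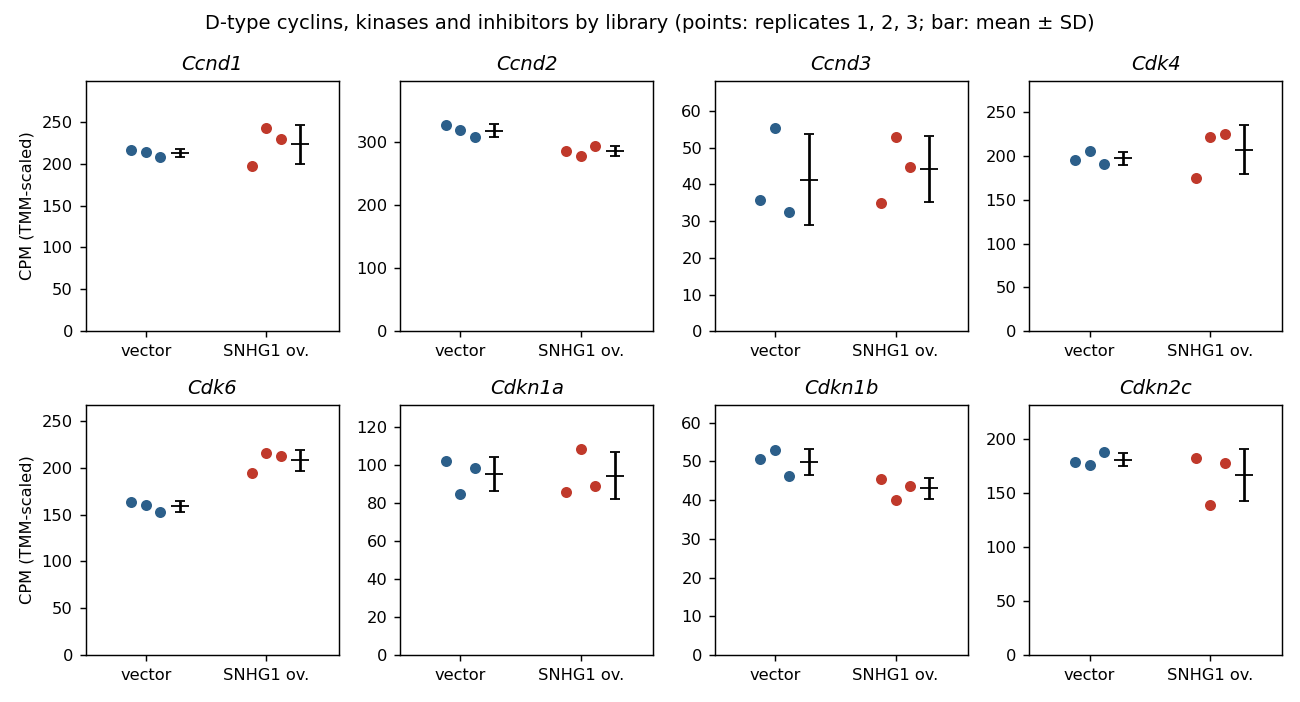
Each panel plots 1 of the 8 tested members, with CPM on the vertical axis from 0, the 3 vector libraries on the left in blue and the 3 libraries labelled SNHG1 overexpression on the right in red, and the mean ± SD as a black bar. The Cdk6 points sit at 153 to 164 CPM in the vector libraries and 195 to 217 CPM in the labelled libraries, while the points of Ccnd1, Ccnd3, Cdk4, Cdkn1a and Cdkn2c overlap between groups.

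Cdk4 and Cdk6 encode the catalytic partners of the D-type cyclins. Cdk6 (ENSMUSG00000040274, chromosome 5, 3391485 to 3581008 on the deposited coordinates, build not named) received 3790, 4558 and 4100 counts with the overexpression label and 3432, 2480 and 2817 with the vector. Scaled to depth, these were 195, 217 and 213 CPM against 164, 160 and 153 CPM. Every labelled library lay above every vector library, and the lowest of the 3 was SNHG1 overexpression replicate 1. The estimate came to 0.39 ± 0.06 as a log2 fold change (SE, n = 3 libraries a group), and edgeR gave an adjusted p of 0.0184. Without that replicate the log2 fold change was 0.43, with an edgeR adjusted p of 0.008. Leaving out any of the other 5 libraries kept a log2 fold change of 0.36 to 0.41. The call was lost in each of these fits, where edgeR's adjusted p ran from 0.0699 to 0.095. Calls over all tested genes fell in the same fits, from 350 to between 123 and 176.

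Cdk4 (ENSMUSG00000006728, chromosome 10, 126899403 to 126903789) was at 175, 222 and 225 CPM in the labelled libraries and 195, 205 and 191 CPM in the vector libraries. The labelled libraries held the lowest value and the 2 highest, so the groups overlapped. On the log2 scale the difference was 0.07 ± 0.10 (SE), and the 95% interval ran from 0.90-fold to 1.23-fold, and edgeR's adjusted p was 0.743. Without SNHG1 overexpression replicate 1, which holds that lowest value, the log2 fold change was 0.18 and edgeR's adjusted p 0.104, whereas it was 0.02 without replicate 2, 0.01 without replicate 3 and 0.004 once trends with GC and length were taken out. On the deposited coordinates the end of Cdk4 shares 641 bp with Tspan31, which runs on the opposite strand in GENCODE M21. Tspan31 was at a log2 fold change of -0.18 ± 0.06 (SE) and did not pass (edgeR, adjusted p = 0.181). The sources used here do not give the strand setting of the authors' counting, so reads in that overlap could belong to either gene. Both genes that lie across Cdk6 on the opposite strand, Gm17590 and Gm42435, had a count of 0 in every library.

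The start regions of these kinase genes are shown as a description only. Whether they bear on the Cdk6 estimate was not tested. Each line gives the 250 bases before the RefSeq start on the plus strand of GRCm38.p6, a build other than that of the deposited coordinates, and capitals mark matches to CACGTG (the E box), GGGCGG (the GC box, here also as its reverse complement) and TATAAA.

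Cdk6, chr5:3343643-3343892: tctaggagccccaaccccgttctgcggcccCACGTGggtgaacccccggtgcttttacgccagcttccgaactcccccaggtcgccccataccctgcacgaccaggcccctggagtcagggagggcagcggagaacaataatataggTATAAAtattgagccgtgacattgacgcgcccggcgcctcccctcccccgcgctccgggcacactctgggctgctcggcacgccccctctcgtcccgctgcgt

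Cdk4, chr10:127063285-127063534: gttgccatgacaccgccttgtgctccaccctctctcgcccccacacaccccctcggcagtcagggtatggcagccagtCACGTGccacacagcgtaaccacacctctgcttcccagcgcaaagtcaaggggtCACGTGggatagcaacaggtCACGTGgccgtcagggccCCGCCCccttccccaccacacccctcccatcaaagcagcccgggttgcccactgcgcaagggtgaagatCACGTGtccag

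The Cdk4 window holds 4 E boxes, at 172, 118, 98 and 11 bases before the start, and 1 GC box at 80 bases. The Cdk6 window holds 1 E box, at 220 bases, and 1 TATAAA at 103 bases, and is 66.0% G or C against 64.4% for Cdk4. At least 1 E box was present in 6.02% of 32851 RefSeq windows of this length, and 4 or more in 7 of them (0.0213%), of which the Cdk4 window is 1. The GC box was present in 32.7% and TATAAA in 12.4%. Both strands were searched, and the motifs do not overlap each other in these windows. Neither window held TTTCGCGC or TTTGGCGC (E2F, 0.654% of windows), TGACTCA (AP-1, 4.46%) or CCAAT (33.8%). A match is a stretch of letters and not a measured binding site. RefSeq windows were matched by symbol for 8 of the 10 members.

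Cyclins D1 and D2 were the abundant D-type cyclins, and none of the 3 passed. Ccnd1 (ENSMUSG00000070348, chromosome 7, 144483668 to 144493662), the cyclin most often tied to growth factor signals, was at 197, 243 and 229 CPM in the labelled libraries and 217, 215 and 208 CPM in the vector libraries. The labelled libraries spread on either side of the vector libraries. Its log2 fold change came to 0.07 ± 0.08 (SE), and the 95% interval ran from 0.92-fold to 1.19-fold, and edgeR's adjusted p was 0.707. LTO1, on the opposite strand in GENCODE M21, shares 1771 bp with Ccnd1 and was at -0.04 ± 0.14 (log2, SE).

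Ccnd2 (ENSMUSG00000000184, chromosome 6, 127102125 to 127129156), the cyclin known from differentiating spermatogonia, was at 286, 279 and 293 CPM in the labelled libraries and 328, 319 and 308 CPM in the vector libraries. All 3 labelled libraries lay below all 3 vector libraries. edgeR estimated a log2 difference of -0.15 ± 0.05 (SE), and the 95% interval ran from 0.83-fold to 0.98-fold. With edgeR the unadjusted p was 0.0182 and the adjusted p 0.19; an unadjusted p under 0.05 was found for 3 of the 8 members and for 17.0% of all tested genes. The non-coding genes Gm43126 and 9330179D12Rik, on the opposite strand across Ccnd2, had at most 20 counts in any library. The estimate was negative in all 16 alternatives and passed in 0 of them, with adjusted p from 0.132 to 0.459.

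Ccnd3 (ENSMUSG00000034165, chromosome 17, 47815976 to 47910616) had the largest standard error of the members on the log2 scale and was at 34.9, 52.9 and 44.8 CPM in the labelled libraries against 35.7, 55.5 and 32.6 CPM. Replicate 2 was the highest library in each group. This gave a log2 fold change of 0.10 ± 0.22 (SE), and the 95% interval ran from 0.76-fold to 1.52-fold, and edgeR's adjusted p was 0.837. That interval leaves room for a change of either sign. Its last 361 bp on the deposited coordinates overlap Bysl, on the opposite strand in GENCODE M21, at 0.33 ± 0.08 (log2, SE; edgeR, adjusted p = 0.0984).

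Of the Cip/Kip inhibitors, neither p27 nor p21 passed. Cdkn1b (ENSMUSG00000003031, chromosome 6, 134897364 to 134902476), which encodes p27, the inhibitor that accumulates in resting cells, was at 45.4, 40.0 and 43.5 CPM in the labelled libraries and 50.5, 52.9 and 46.2 CPM in the vector libraries. The groups did not overlap, although the gap between 45.4 and 46.2 CPM was smaller than the SD of either group. As a log2 fold change the difference was -0.21 ± 0.08 (SE), and the 95% interval ran from 0.76-fold to 0.98-fold, an unadjusted p of 0.026 and an adjusted p of 0.224 (edgeR). It was negative in all 16 alternatives, at -0.27 to -0.15, and passed in 0.

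Cdkn1a (ENSMUSG00000023067, chromosome 17, 29309950 to 29319701) encodes p21, the inhibitor that p53 induces after DNA damage. It was at 85.8, 108 and 88.8 CPM in the labelled libraries and 102, 84.7 and 98.1 CPM in the vector libraries. The highest and the second lowest values were labelled libraries, and the groups overlapped. The fitted log2 difference was -0.01 ± 0.11 (SE), and the 95% interval ran from 0.84-fold to 1.18-fold, and edgeR's adjusted p was 0.974. The sign was kept in 11 of the 16 alternatives. The antisense transcript Dino, which lies within Cdkn1a and is known from the p53 response, had 2 to 5 counts per library.

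**Figure D2:**
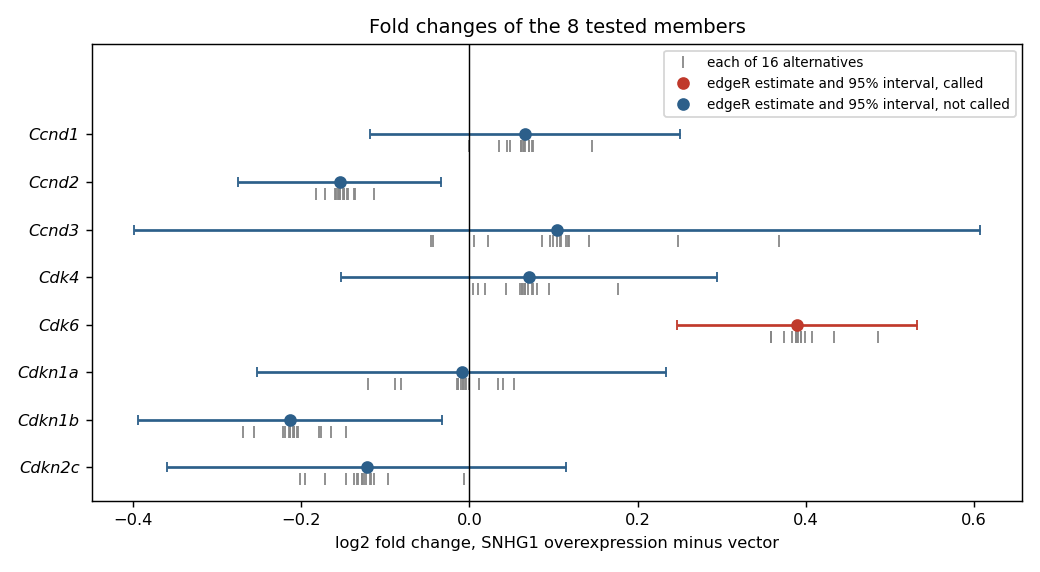
Points and bars plot the edgeR log2 fold change of each tested member (horizontal axis, SNHG1 overexpression minus vector) with its 95% interval, red where called and blue where not, and grey ticks plot the estimate in each of the 16 alternatives. The Cdk6 ticks lie between 0.36 and 0.49, those of Ccnd2 and Cdkn1b stay below 0, and those of Cdkn1a and Ccnd3 fall on both sides of 0.

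Among the INK4 genes, Cdkn2c was abundant and Cdkn2a and Cdkn2b were not detected. Cdkn2c (ENSMUSG00000028551, chromosome 4, 109518073 to 109524386) encodes p18, which is prominent in male germ cells. It was at 183, 139 and 178 CPM in the labelled libraries and 179, 177 and 189 CPM in the vector libraries. SNHG1 overexpression replicate 2 alone was low, and the other 2 labelled libraries lay within the range of the vector libraries. The model put the log2 difference at -0.12 ± 0.10 (SE), and the 95% interval ran from 0.78-fold to 1.08-fold and an edgeR adjusted p of 0.572. Without that replicate it was -0.006. Cdkn2d, the fourth INK4 gene and not among the 10, was at 22.5, 25.7 and 22.6 CPM against 18.6, 26.3 and 19.1 CPM and did not pass (edgeR, adjusted p = 0.615).

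Cdkn2a (ENSMUSG00000044303, chromosome 4, 89192708 to 89212890) encodes p16 and, from a separate first exon, the p53 activator p19Arf, and its 1 row in the table covers both products. Cdkn2b (ENSMUSG00000073802, chromosome 4, 89224536 to 89229276) encodes p15, the inhibitor known for its response to TGF-beta. Both had a count of 0 in all 6 libraries, as had 31.4% of the 21608 protein-coding rows. A count of 0 in 114833935 counts allows up to 0.0261 CPM (3 counts), and up to 0.142 to 0.193 CPM in a single library, for counting error only. No fold change can be given for either gene.

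Genes next to this pair were counted in large numbers on one side only. Mtap, which encodes the methionine salvage enzyme methylthioadenosine phosphorylase, ends 93.4 kb before Cdkn2a on the deposited coordinates and had 158504 counts in the 6 libraries. At a mean of 1385 CPM it ranked 41 of 57180 rows by CPM, and 104 by mean FPKM. Within 400 kb on each side of Cdkn2a lay 17 rows, of which 5 were at 0 throughout: Tgif2-ps1, Cdkn2a, Cdkn2b, Gm55777 and Dmrta1. The long non-coding genes Gm12602, Wincr1 and Gm49890, on the far side of Mtap, had 3743, 662 and 5126 counts. Between Mtap and Cdkn2a, Gm12606 had 5 counts and Gm26490 1 count in all. Gm12610, a long gene annotated on the opposite strand that runs across Cdkn2b and far past it, drew 17, 28 and 31 counts with the overexpression label and 28, 28 and 19 with the vector, and the counts do not show where along the gene these reads lie. Of the 6 rows in the window that were tested, 0 passed edgeR, and Mtap was at -0.11 (log2, adjusted p = 0.303). DNA was not measured, and whether the genes are present in this line was not tested.

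**Figure D3:**
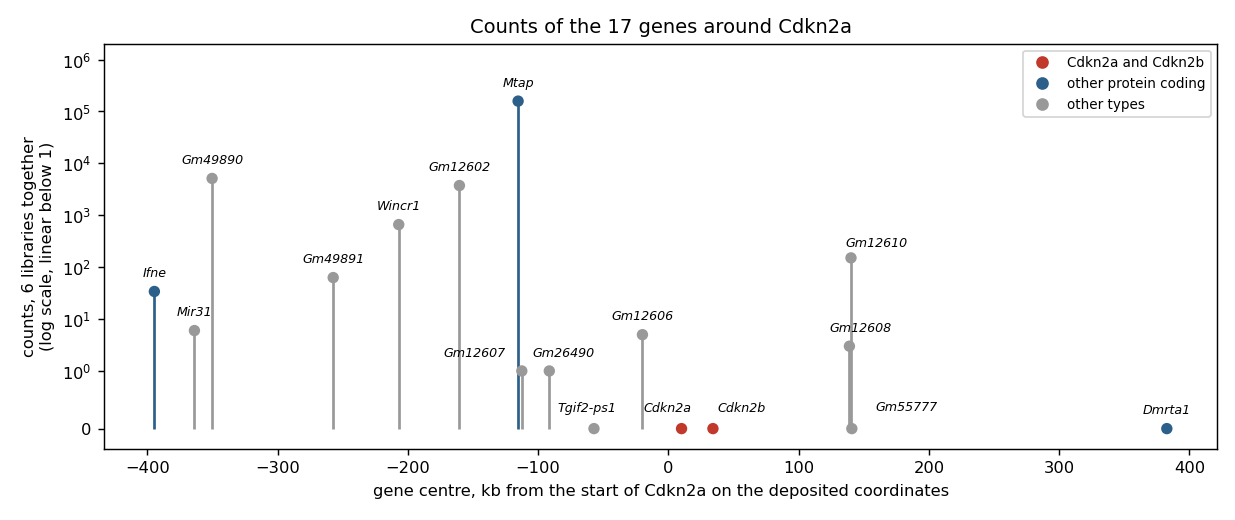
Stems plot the counts of the 17 rows within 400 kb of Cdkn2a, summed over the 6 libraries (vertical axis, log scale and linear below 1), at the distance in kb of each gene's centre from the start of Cdkn2a. Cdkn2a and Cdkn2b, in red, sit at 0, beside Mtap at 158504 counts.

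Levels can be compared between genes only per length, for which the deposited FPKM, which divides by gene length and library size, was used. In the vector libraries the order was Cdkn2c at 64.0 ± 2.32 FPKM, Ccnd1 at 37.9 ± 0.753, Cdk4 at 30.8 ± 1.16, Ccnd2 at 25.7 ± 0.761, Cdkn1a at 14.3 ± 1.33, Cdk6 at 9.25 ± 0.303, Cdkn1b at 6.56 ± 0.44 and Ccnd3 at 2.53 ± 0.764 (SD, n = 3). No neighbours in that order overlapped within the vector group. In the labelled libraries the order was the same, but Ccnd1 (35.1 to 43.3 FPKM) and Cdk4 (27.4 to 35.3 FPKM) overlapped. The INK4 gene Cdkn2c thus had the highest FPKM of the 10, at percentile 95.3 of the tested genes, while Ccnd3 stood at percentile 35.6.

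That order depends on the gene length behind the FPKM. The deposited values imply 6385 bp for Cdk4, which exceeds its genomic span of 4387 bp, and 16274 bp for Ccnd3, against 2053 and 3858 bp for the longest transcript of each in GENCODE M21. Scaled by those transcripts instead, Cdk4 was highest at 95.8 ± 3.62 in the vector libraries, above Cdkn2c at 73.2 ± 2.65 and Ccnd1 at 56.8 ± 1.13 (the same units, SD, n = 3). Ccnd2 at 48.6 to 51.5 and Cdkn1a at 40.7 to 48.6 then overlapped, as did Cdkn1b and Ccnd3. Cdk6 stayed below Cdk4 on either scale. Its ratio to Cdk4 in FPKM was 0.415, 0.365 and 0.353 in the labelled libraries and 0.312, 0.291 and 0.299 in the vector libraries, so the groups did not overlap. This ratio contains the Cdk6 difference given above and is not a separate result.

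**Figure D4:**
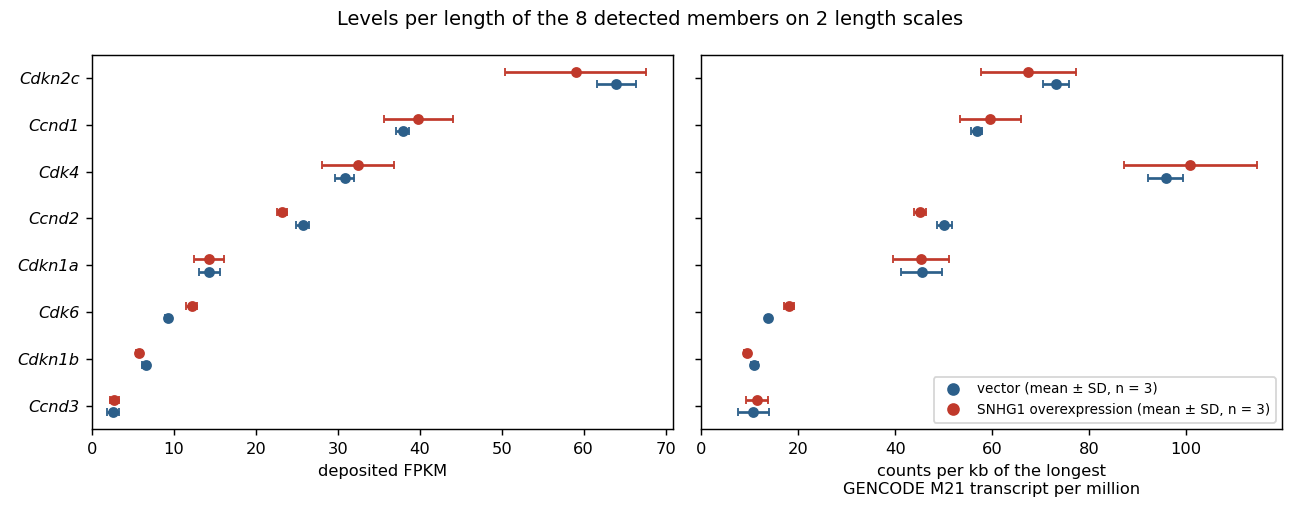
Points with bars plot the mean ± SD of each detected member per length and library size (horizontal axes from 0), in blue for the 3 vector libraries and in red for the 3 labelled libraries, with deposited FPKM on the left and counts per kilobase of the longest GENCODE M21 transcript on the right. Cdkn2c is highest on the left at 64.0 and Cdk4 on the right at 95.8 in the vector libraries.

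The 3 D-type cyclins together were at 60.4, 69.1 and 67.5 FPKM in the labelled libraries and 67.0, 67.4 and 63.9 FPKM in the vector libraries, which overlapped. Cyclin D1 made up 58.1%, 62.7% and 60.7% of that sum in the labelled libraries and 57.4%, 56.7% and 57.9% in the vector libraries. The groups did not overlap on this scale and did overlap with GENCODE M21 lengths. Cyclin D2 made up 38.3%, 32.6% and 35.3% against 39.4%, 38.3% and 38.9%, which overlapped, and cyclin D3 made up 3.13% to 5.05% over all libraries. With GENCODE M21 lengths the share of cyclin D3 was 7.49% to 11.8%.

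Genes around this switch were read from 9 lists. In 7 of the lists no gene passed edgeR. Counts at an unadjusted p under 0.05 with edgeR are to be read beside 17.0% of all tested genes. DESeq2 calls are to be read beside 5.4% of the genes it tested. Over all lists 134 of 142 listed genes were tested, of which 8 rose and 3 fell, 8.21% against 2.4% of all tested genes, and all 11 were p53 targets or transcription factors. The lists were put together with earlier results of these data known.

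Cyclins E and A and their kinases, which act after the D-type cyclins, had 0 calls among 5 tested members, 1 with an unadjusted p under 0.05, and DESeq2 called 0. Ccna2, the S-phase cyclin, was at 113, 131 and 136 CPM in the labelled libraries and 123, 117 and 123 CPM in the vector libraries. The mitotic kinase Cdk1 was at 0.03 ± 0.07 and Cdk2, the partner of cyclins E and A, at -0.09 ± 0.19 (log2, SE). The pocket proteins, E2F factors and subunits of the DREAM repressor complex had 0 calls among 18, with 0 also at an unadjusted p under 0.05 and 0 with DESeq2, and a median log2 fold change of -0.04. The 3 of the highest mean CPM were the histone-binding subunit Rbbp4 at -0.09 ± 0.05, the E2F partner Tfdp1 at -0.002 ± 0.08 and E2f3 at -0.09 ± 0.48 (log2, SE).

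The 25 E2F target genes of DNA replication had 0 calls with edgeR, 4 at an unadjusted p under 0.05 and 1 with DESeq2. Their median log2 fold change was 0.13 beside 0.007 for all tested genes. The median was 0.108 with GC and length trends removed and ran from 0.068 to 0.213 with single libraries left out, the highest without SNHG1 overexpression replicate 1. Highest in mean CPM were the ribonucleotide reductase subunit Rrm1 at 0.05 ± 0.08, the maintenance methylation factor Uhrf1 at 0.28 ± 0.10 and the helicase subunit Mcm5 at 0.20 ± 0.09 (log2, SE). edgeR's adjusted p-values were 0.788, 0.223 and 0.31, so no call was made. Uhrf1 was at 209, 274 and 257 CPM against 218, 190 and 201 CPM, with SNHG1 overexpression replicate 1 inside the range of the vector libraries.

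Genes that activate and assemble the kinases had 0 calls among 9, with 4 at an unadjusted p under 0.05 and 0 with DESeq2. Those 4 had estimates of both signs. The kinase chaperone Cdc37 was at 220, 223 and 219 CPM against 204, 198 and 207 CPM, and its partner chaperones Hsp90aa1 and Hsp90ab1 were at -0.14 ± 0.05 and 0.02 ± 0.04 (log2, SE). Genes for the turnover of D-type cyclins, p21 and p27 had 0 calls among 17, with 3 at an unadjusted p under 0.05 and 1 with DESeq2. The ubiquitin ligase subunits Ddb1, Skp1 and Cul4a were at 0.003 ± 0.05, -0.08 ± 0.07 and -0.23 ± 0.15 (log2, SE). The list of Polycomb genes, which repress the Cdkn2a and Cdkn2b locus in many cells, and of the demethylase Kdm6b, which opposes them, had 0 calls among 15 with edgeR and with DESeq2 and 4 at an unadjusted p under 0.05. The Polycomb subunit Bmi1 was at 87.8, 89.7 and 90.7 CPM against 103, 97.3 and 96.4 CPM, Kdm6b was at -0.25 ± 0.09 and the subunit Phc2 at 0.12 ± 0.07 (log2, SE), and none of these passed. The inhibitors outside the 10 had 0 calls among the 2 tested, Cdkn2d and Cdkn3, with 0 at an unadjusted p under 0.05 and 0 with DESeq2.

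The list of p53 and its arrest targets had 3 increases and 2 decreases among 17 tested members, with a median log2 fold change of 0.21. Of all tested genes edgeR called 2.4%. In this list 10 had an unadjusted p under 0.05 with edgeR (17.0% of all tested genes), and DESeq2 called 7 (5.4% of the genes it tested). Cdkn1a, a main target of p53, is among the 10 members and was therefore not put on this list. Its own estimate, given above, did not pass. Fas, the death receptor, was at 45.2, 33.2 and 34.3 CPM in the labelled libraries against 6.24, 8.26 and 8.14 CPM. The growth arrest gene Gadd45a was at 21.1 ± 0.962 CPM against 14.2 ± 1.18 CPM (SD, n = 3), and the kinase Plk2 at 283 to 310 CPM against 218 to 232 CPM. The stress sensor Sesn1 was lower, at 55.2 to 59.8 CPM against 73.9 to 80.2 CPM, as was Trp53inp1 at 61.6 to 70.0 CPM against 83.1 to 87.9 CPM. Fas passed in all 16 alternatives, Plk2 and Sesn1 in 12, Gadd45a in 10 and Trp53inp1 in 6, where its adjusted p reached 0.119.

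The transcription factors known to act on D-type cyclin or CDK inhibitor genes had 5 increases and 1 decrease among 26 tested members, with a median log2 fold change of 0.18. The share of calls over all tested genes was 2.4%. Here 15 had an unadjusted p under 0.05 with edgeR (17.0% of all tested genes), and DESeq2 called 11 (5.4% of the genes it tested). Nfkb1, which encodes an NF-kappaB subunit, was at 186, 193 and 176 CPM in the labelled libraries and 83.1, 86.2 and 86.6 CPM in the vector libraries. Stat3, a factor that cytokine receptors activate, was at 186, 167 and 176 CPM against 121, 119 and 122 CPM. Foxo3, which is known to induce Cdkn1b when growth signals fall, was at 217, 187 and 183 CPM against 131, 123 and 128 CPM. Cdkn1b itself was not higher, and whether Foxo3 acted on it in these cells was not tested. Ets2 was at 31.6, 31.5 and 25.6 CPM against 17.5, 18.1 and 17.7 CPM, and the AP-1 subunit Fosl1 at 56.8, 71.8 and 59.1 CPM against 45.8, 44.2 and 38.6 CPM. Id2, which encodes an inhibitor of differentiation factors that also binds the retinoblastoma protein, was lower at 6.27, 7.46 and 7.79 CPM against 10.7, 11.6 and 14.4 CPM. Nfkb1, Stat3 and Foxo3 passed in all 16 alternatives and Ets2 in 14, whereas Fosl1 and Id2 passed in 6.

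**Figure D5:**
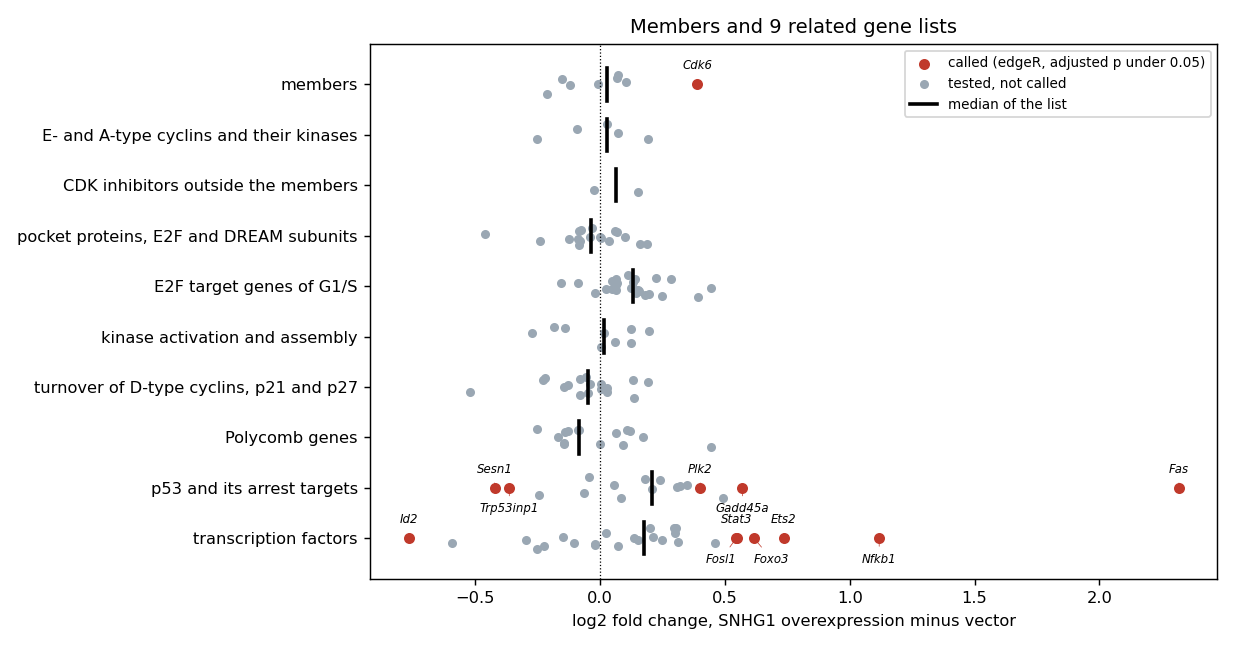
Each point is a tested gene placed by its log2 fold change (horizontal axis, SNHG1 overexpression minus vector) in the row of its list, with called genes in red and named, others in grey, and the median of the list as a black bar. The first 8 rows from the top hold Cdk6 as their 1 called gene, and the other 11 called genes lie in the p53 and transcription factor rows.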

How the data were processed

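The sample labels gave each library its group. The authors deposited 1 table with whole-number counts and FPKM values per gene and library. The tools listed per the submitters' processing notes are StringTie, HISAT2 and SAMtools 1.3.1. The notes list the human build GRCh38, although the gene identifiers are of mouse. How reads were counted, with which strand setting, and on which build the coordinates lie is not stated there. The deposited FPKM values rest on gene lengths that can exceed the genomic span.

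Counts were tested with the quasi-likelihood test of edgeR 4.0.16 in R 4.3.3 over all genes that passed filterByExpr (TMM, group as the only term, Benjamini-Hochberg threshold 0.05). No per-sample column was left unused. The alternatives were median-of-ratios factors, library totals, DESeq2 1.42.0, no filter, a minimum of 1 CPM in 3 libraries, limma 3.58.1 (voom, and log2(FPKM + 1) or log2(FPKM + 0.1), where a fold change of a low gene is understated), a replicate block, each library left out, and removal of GC and length trends, the last added after the data were seen. The members and lists were chosen with earlier results of these data known. Named genes are all members, every called gene of a list and otherwise its 3 genes of the highest mean CPM. Others were named after their values were seen. The shares and the Cdk6 to Cdk4 ratio are printed without a p, since 3 against 3 libraries cannot go below 0.1 in an exact permutation test.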

Additional observations from a re-analysis of the deposited data

How the results depend on the processing

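Of 128 estimates of the 8 tested members under 16 alternatives, 122 kept their side of the threshold, and the 6 that did not were all of Cdk6. Over all tested genes, deviations from the group means showed almost no correlation between same-numbered libraries (-0.004, -0.030 and -0.021). A correlation over all genes cannot exclude pairing that affects only some genes. The fit with the replicate block called 0 members against 1, 163 genes against 350, and 5 related list genes against 11. Cdk6 was then at 0.39 with an adjusted p of 0.0797. DESeq2 called 690 genes and 20 related list genes. With single libraries left out, 0 to 1 members, 123 to 807 genes and 4 to 18 related list genes were called. The 807 and the 18 came without SNHG1 overexpression replicate 1, and the cause was not tested. With GENCODE M21 lengths the Cdk6 to Cdk4 ratio was 0.0368 higher in the labelled libraries, in place of 0.0771, since the lengths rescale the ratio. Cdk6 was at 0.49 with GC and length trends removed (adjusted p = 0.0116). Depth bounds Cdkn2a and Cdkn2b only to 0.0261 CPM.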

Other observations

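The genes below were named after their values were seen. E2f3, which encodes an E2F activator, stood at 2 levels inside each group, at 88.1, 79.4 and 26.3 CPM in the labelled libraries and 81.0, 91.6 and 33.2 CPM in the vector libraries, with replicate 3 low in both. Cdk2 was at 50.5, 36.2 and 30.9 CPM against 37.6, 49.6 and 38.3 CPM. The estimates of these genes therefore carry wide errors.

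DESeq2 called genes of these lists that edgeR did not. Trp53, which encodes p53, was at 171, 185 and 166 CPM in the labelled libraries and 155, 127 and 139 CPM in the vector libraries (log2 fold change 0.31; adjusted p = 0.114 with edgeR and 0.0253 with DESeq2). Orc1, the largest subunit of the origin recognition complex, was at 20.1, 21.5 and 19.9 CPM against 15.9, 15.2 and 15.8 CPM (0.39; adjusted p = 0.0556 and 0.0342). Cryab, a small heat shock protein that also serves the ubiquitin ligase for cyclin D1, was at 31.7, 29.5 and 36.8 CPM against 47.2, 54.6 and 39.0 CPM (-0.52; adjusted p = 0.0989 and 0.00768).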
